A study of Mus musculus with 15 samples.

Results

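Cxcl15, Ttr and Prap1 encode secreted proteins of epithelium, and their RNA was followed through 15 RNA sequencing libraries of mouse uterine epithelium. The genes were taken by name, 3 of the 28269 genes listed in at least 1 library's table, and all 3 are listed in all 15 tables. They were chosen because earlier results from these libraries had shown large differences between epithelia and between genotypes for them. Their values and differences are therefore given as descriptions, with standard errors and with no test.

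The uterine epithelium was sampled on day 4 as luminal epithelium (LE), which lines the cavity, or glandular epithelium (GE), which forms the glands below it. Wild-type animals (titled Ctrl) gave 3 LE and 3 GE libraries. Animals labelled as overexpressing the receptor gene Notch1 gave 3 LE and 3 GE libraries under the title E-OEX and 3 LE libraries under the title U-OEx. The titles do not spell out E-OEX or U-OEx, and the promoter or Cre driver, the strain, the animals' age and any pooling of animals are not given in the sources used here. Replicates are numbered libraries, so standard errors and p-values measure the spread between libraries, which may be partly technical.

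Cxcl15, also called lungkine, is a CXC chemokine that recruits neutrophils and is made by airway epithelium and by uterine glands. Ttr encodes transthyretin, a carrier protein of liver and choroid plexus that binds thyroxine and, through retinol-binding protein, retinol. Prap1 encodes a proline-rich acidic protein that was described in pregnant uterus and in gut epithelium, where it binds lipid and works with the microsomal triglyceride transfer protein Mttp. Glands develop and secrete under the transcription factor Foxa2, and the cytokine Lif is the gland product needed for implantation. Notch1 is a membrane receptor whose cleaved intracellular part acts in the nucleus with RBPJ and switches on genes of the Hes and Hey families.

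In GRCm38 with the GENCODE M21 annotation, Cxcl15 (ENSMUSG00000029375) lies on the plus strand at chr5:90794534-90803067, with 4 exons and 2127 exonic bases. Ttr (ENSMUSG00000061808) has 4 exons and 1186 exonic bases. Prap1 (ENSMUSG00000025467) lies on the plus strand at chr7:140093395-140097200, with 5 exons and 620 exonic bases. All 3 are annotated as protein coding. The genome builds GRCm38 and mm10 are named in the submitters' processing notes.

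The 250 bases before the RefSeq transcription starts of Cxcl15 and Prap1 are shown because the 2 genes were both higher in Notch1-overexpressing LE while lying on opposite sides of the split between LE and GE. The sequences are from RefSeq (GRCm38.p6), plus strand, at chr5:90794284-90794533 and chr7:140093146-140093395, and for Prap1 the RefSeq start lies 1 base after the GENCODE start. Capitals mark matches to the motifs searched.
Cxcl15: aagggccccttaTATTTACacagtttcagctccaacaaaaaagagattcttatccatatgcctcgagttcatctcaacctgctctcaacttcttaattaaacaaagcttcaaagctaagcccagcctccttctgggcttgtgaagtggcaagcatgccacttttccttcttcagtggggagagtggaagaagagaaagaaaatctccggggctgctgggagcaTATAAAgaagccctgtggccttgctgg
Prap1: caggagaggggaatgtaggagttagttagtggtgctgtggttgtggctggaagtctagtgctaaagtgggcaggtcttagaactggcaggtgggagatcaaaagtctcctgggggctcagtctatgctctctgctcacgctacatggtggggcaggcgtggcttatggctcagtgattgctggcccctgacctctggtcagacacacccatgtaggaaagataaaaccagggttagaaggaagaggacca
The Cxcl15 window holds TATAAA, the TATA box core, with its first base at −27 from the start. It also holds TATTTAC, 1 of the 2 forms searched for forkhead factors such as Foxa2 (TGTTTAC or TATTTAC), at −238. On both strands of all 32851 windows of this length, TATAAA was found in 12.4% and a forkhead form in 5.76%. Neither window holds the RBPJ core TGGGAA (21.6% of windows) or the STAT form TTCNNNGAA (7.02%). The Prap1 window holds none of these 4 motifs, and no 2 of them overlap in the Cxcl15 window. A match is a description of letters, and the absence of a match says nothing about a factor's binding.

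Levels are the authors' scaled read counts, in which 1 read is worth between 0.865 and 1.15. The tables of wild type, E-OEX and U-OEx list 6414, 4903 and 27946 genes, and their sums are 3818041 to 4797424, 1980800 to 3494859 and 13541644 to 14981505 reads per library. The first 2 sets hold genes that differ between the epithelia, so for a listed gene the difference between GE and LE within a genotype reflects this selection. Comparisons between genotypes and the interaction cover only genes listed for every group compared. Shares given below for all genes therefore refer to these selected genes and not to the whole transcriptome. The sets appear to have been scaled separately, and differences between genotypes were therefore computed from recovered reads rescaled together. Differences are on the log2(value + 1) scale. Luminal markers (5 of 7 listed in all tables, among them Wnt7a, Calb1 and Lpar3) summed to 31503 to 57901 in wild-type LE, 13319 to 17804 in E-OEX LE, 5426 to 8417 in U-OEx LE, 406 to 850 in wild-type GE and 1027 to 1967 in E-OEX GE. Glandular markers (4 of 6: Foxa2, Calca, Spink1 and Lif) summed to 16486 to 24621 in wild-type GE, 2801 to 4023 in E-OEX GE and at most 1261 in any LE library. GE libraries also held stromal markers (7 of 9), which summed to 30219 to 87349 in wild type and 72218 to 78125 in E-OEX, against at most 7685 in LE. In these bulk libraries fewer cells of a type and less RNA per cell cannot be told apart.

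**Figure D1:**
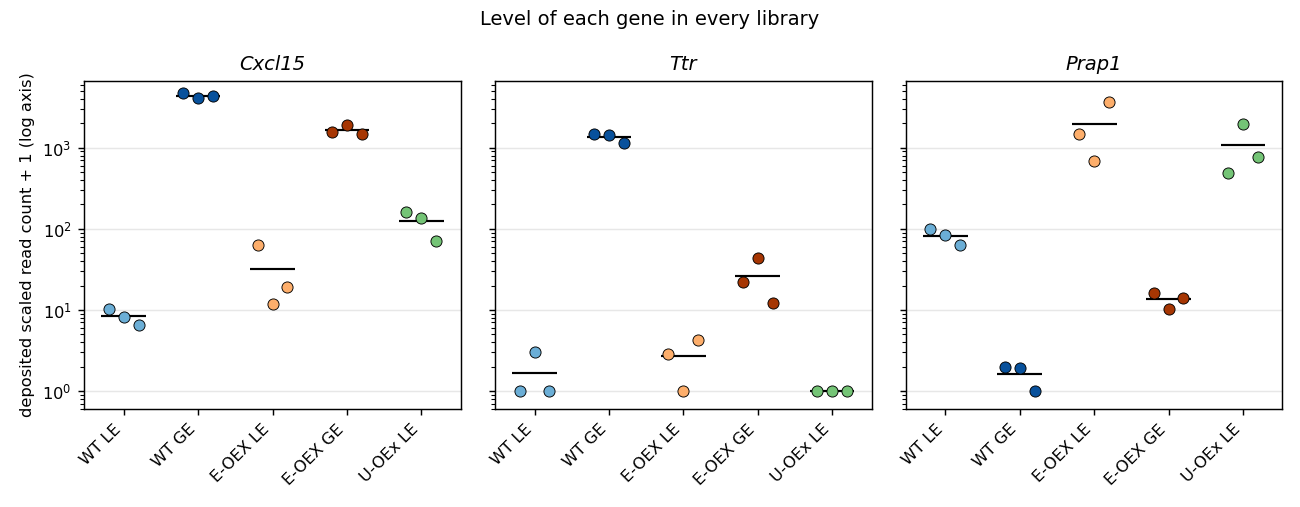
Deposited scaled read count + 1 (log axis) of Cxcl15, Ttr and Prap1 in each of the 15 libraries, by group; points are libraries and bars are means of 3. Cxcl15 and Ttr are highest in wild-type GE, and Prap1 is highest in the LE of both Notch1-overexpressing groups.

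Cxcl15 was a gland transcript in both genotypes, with less of it in E-OEX than in wild-type glands, and it was higher in the LE of both Notch1-overexpressing groups than in wild-type LE. In wild-type GE its scaled counts were 4776, 4045 and 4334 (4385 ± 368, SD, n = 3). In wild-type LE they were 9.32, 7.17 and 5.59 (7.36 ± 1.87), from 21 reads in all. Every wild-type GE library thus stood far above every wild-type LE library. The difference was 9.06 ± 0.26 (log2, SE) and was the 15th largest by size among the 6414 genes. The groups did not overlap, which held for 95.9% of the genes in these selected tables.

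In E-OEX GE the Cxcl15 counts were 1582, 1904 and 1456 (1647 ± 231). All 3 libraries lay below all 3 wild-type GE libraries. After joint rescaling the difference was −1.88 ± 0.24 (log2, SE), which is 3.69-fold lower. It was −1.42 on the deposited scale. Values of 40.5% of the 2851 genes tested did not overlap between these 2 groups (18.6% higher and 21.9% lower in E-OEX), so this separation was common in the comparison. On the deposited scale, summed counts of the stromal markers overlapped between the 2 groups. Hand2 alone did not, by a narrow margin (101 to 230 in wild-type and 231 to 366 in E-OEX glands). This scale appears to differ between the genotypes, so that margin and the sums that follow are descriptions only. The smooth muscle markers (5 of 6) summed to 2734 to 4878 in wild-type and 14150 to 17496 in E-OEX glands, and endothelial markers (5 of 6) to 2270 to 4026 and 3057 to 8626. Pan-epithelial markers (3 of 8: Cdh1, Krt19 and Cldn7) summed to 11431 to 12389 in wild-type and 15696 to 20910 in E-OEX glands. Of these only Krt19 did not overlap (1295 to 1997 in wild-type and 8487 to 10556 in E-OEX glands). The part of these marker differences in the lower Cxcl15 level was not tested.

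A ratio of 2 genes within 1 library does not depend on how the library was scaled. Relative to Foxa2, Cxcl15 stood at 2.14, 1.57 and 1.90 in wild-type GE (1.87 ± 0.291). It stood at 0.700, 0.981 and 0.561 in E-OEX GE (0.748 ± 0.214), below every wild-type GE library. On the deposited scale Foxa2 counts overlapped, at 2227, 2584 and 2282 in the wild-type libraries against 2260, 1941 and 2593 in the E-OEX libraries. After joint rescaling Foxa2 was lower in E-OEX GE and was not called, as given below. Cxcl15 was thus lower against the gland factor's RNA as well as against the library as a whole.

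**Figure D2:**
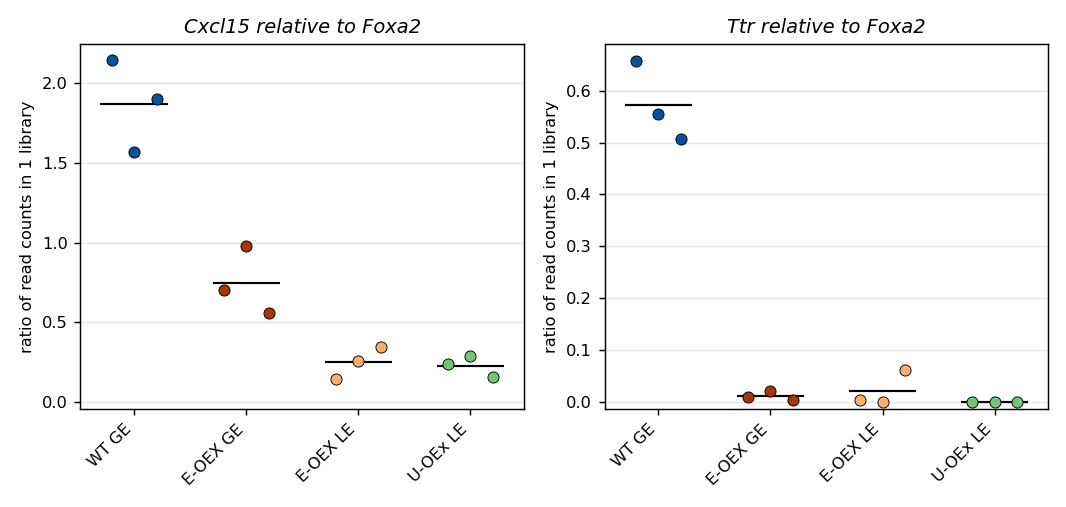
Reads of Cxcl15 (left) and Ttr (right) divided by reads of Foxa2 in the same library; points are libraries and bars are means of 3, and wild-type LE is left out because Foxa2 had only 29 reads there in all. Both ratios are highest in the 3 wild-type GE libraries.

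In LE, Cxcl15 was near the limit of detection in wild type and higher in both Notch1-overexpressing groups. E-OEX LE had 63.0, 10.9 and 18.3 (30.7 ± 28.2), from 69, 12 and 17 reads. The groups did not overlap, but the lowest E-OEX library was close to the highest wild-type library. The values were 10.9 against 9.32 as deposited, and 11.0 against 10.5 after joint rescaling. The difference was 1.41 ± 0.76 (log2, SE), and 0.79 without E-OEX LE replicate 1. Values of 29.9% of the 2600 genes tested did not overlap, 15.1% being higher in E-OEX. E-OEX LE replicate 1 also had the highest Foxa2 count in E-OEX LE, 426 against 41.8 and 52.9, and the highest Lif count, 519 against 147 and 36.7. Calca and Spink1, the other glandular markers summed above, had 0 in all 3 E-OEX LE libraries. The part of this library's gland transcripts in its Cxcl15 level was not tested.

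U-OEx LE had Cxcl15 counts of 160, 137 and 70.1 (122 ± 46.6), all above every wild-type and E-OEX LE library. The difference from wild-type LE was 3.80 ± 0.49 (log2, SE), a 14.0-fold higher value, in a comparison in which 63.8% of 5949 genes did not overlap and 32.7% were higher in U-OEx. The difference from E-OEX LE was 2.12 ± 0.64, and 2.74 without E-OEX LE replicate 1, where 38.2% of 4275 genes did not overlap and 20.1% were higher in U-OEx. The E-OEX and U-OEx comparisons with wild-type LE share the same 3 wild-type libraries. The U-OEx LE level was still below that of every wild-type GE library, with a difference of −5.03 ± 0.29 (log2, SE). Values of 75.7% of the 6028 genes tested did not overlap there, 39.6% being lower in U-OEx LE.

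Foxa2 was also higher in U-OEx LE (677, 471 and 441) than in wild-type LE (14.5, 4.10 and 12.3). Cxcl15 relative to Foxa2 was 0.236, 0.291 and 0.159 in U-OEx LE and 0.148, 0.261 and 0.347 in E-OEX LE. Both sets of ratios lay below every E-OEX GE library. The LE of the Notch1-overexpressing groups thus carried less Cxcl15 per Foxa2 transcript than glands of either genotype.

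The order of Cxcl15 levels was wild-type GE, E-OEX GE, U-OEx LE, E-OEX LE and wild-type LE, and no 2 neighbours in this order overlapped on the deposited scale. That scale appears to differ between the genotypes, and margins between the LE groups were narrow after joint rescaling. The lowest U-OEx LE library then stood at 67.6 against 62.2 for the highest E-OEX LE library. The lowest E-OEX LE library stood at 11.0 against 10.5 for the highest wild-type LE library. The gap between GE and LE was 6.06 ± 0.61 (log2, SE) in E-OEX and 6.75 without E-OEX LE replicate 1. Relative to wild type the gap differed by −2.99 ± 0.72, or −2.30 without that library; 10.7% of 2933 genes were called in this interaction. GE and LE did not overlap in E-OEX for 89.9% of the listed genes. Per kilobase of exon, Cxcl15 stood at 2061 ± 173 in wild-type glands and at 774 ± 109 in E-OEX glands. This placed it at rank 32 to 40 in wild-type GE and 113 to 124 in E-OEX GE, of the 2665 genes listed in all tables with a known length.

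Ttr, on the plus strand at chr18:20665280-20674321, was abundant in wild-type glands and far lower in E-OEX glands. Its scaled counts were 1463, 1435 and 1156 in wild-type GE (1351 ± 170) and 21.0, 42.5 and 11.2 in E-OEX GE (24.9 ± 16.0, 70 reads in all). The lowest wild-type GE library was many times the highest E-OEX GE library. The difference was −6.34 ± 0.45 (log2, SE), 80.9-fold lower and the 4th largest of 2851 genes by size. Leaving out each library in turn gave −6.82 to −5.82. Ttr relative to Foxa2 was 0.657, 0.555 and 0.506 in wild-type glands. In E-OEX glands this ratio was 0.00930, 0.0219 and 0.00434. The smooth muscle, endothelial and pan-epithelial marker sums given above for Cxcl15 apply to the same libraries, and their part in the Ttr difference was not tested.

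In LE, Ttr was at or near 0 in every group. Wild-type LE had 0, 2.05 and 0 (2 reads in all), E-OEX LE had 1.83, 0 and 3.24 (5 reads) and U-OEx LE had 0 in all 3 libraries. The ratio of wild-type GE to wild-type LE was 1906, with a 95% interval of 527 to 15747. It was 1258 without wild-type LE replicate 1 and 1233 with DESeq2 size factors, and both wild-type LE reads came from replicate 2. Intervals and detection limits here cover counting error only. In U-OEx LE, 0 of 42931978 reads allow a level of up to 0.0699 reads per 1000000 at a floor of 3 reads. Against that floor Ttr was at least 1263-fold higher in wild-type GE, or at least 810-fold when a U-OEx library was left out.

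E-OEX LE and wild-type LE could not be told apart for Ttr at this depth, with a ratio of 2.02 and an interval of 0.330 to 21.2 (1.27 without E-OEX LE replicate 3). E-OEX GE remained above E-OEX LE by 3.31 ± 0.71 (log2, SE), with no overlap between the groups, as for 89.9% of the listed genes. The value depends on the pseudocount at such low reads and was 4.65 with a pseudocount of 0.1. The order was wild-type GE, then E-OEX GE, then the 3 LE groups, which overlapped. Per kilobase, Ttr stood at 1139 ± 143 in wild-type GE (rank 57 to 93 of 2665) and 21.0 in E-OEX GE (rank 1204 to 1979), a wider spread of ranks than among the wild-type libraries. In contrast to Cxcl15, Ttr was not detected in U-OEx LE, although Foxa2 was present there.

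Prap1 had the opposite distribution. It was a luminal transcript, and it was higher in both Notch1-overexpressing groups than in wild type. Wild-type LE had 98.4, 84.0 and 62.6 (81.7 ± 18.0). E-OEX LE had 1475, 693 and 3669 (1946 ± 1543) and U-OEx LE had 481, 1943 and 776 (1067 ± 774). All 6 libraries of the Notch1-overexpressing groups lay above all 3 wild-type LE libraries, and the 3 libraries within each of these groups spread widely. Of all genes tested, 15.1% lay above wild-type LE without overlap in E-OEX LE and 32.7% in U-OEx LE.

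The Prap1 difference from wild-type LE was 4.09 ± 0.60 (log2, SE) in E-OEX, 17.0-fold, and 3.45 ± 0.50 in U-OEx, 10.9-fold. It was the 65th largest of 2600 genes by size in E-OEX LE and the 1004th of 5949 in U-OEx LE. U-OEx LE and E-OEX LE overlapped, with a difference of −0.92 ± 0.66 that was −0.29 without E-OEX LE replicate 3. The library with the highest Prap1 in E-OEX LE, replicate 3, did not have the highest Cxcl15, which was in replicate 1.

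The luminal marker sums were lower in E-OEX LE and U-OEx LE than in wild-type LE, opposite to Prap1. Relative to Wnt7a, a ligand gene of LE, Prap1 was 0.0333, 0.0168 and 0.0176 in wild-type LE. It was 0.663, 0.108 and 2.11 in E-OEX LE and 0.358, 0.691 and 0.492 in U-OEx LE. Every library of the Notch1-overexpressing groups lay above every wild-type LE library on this measure too.

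In GE, Prap1 was close to the limit of detection. Wild-type GE had 0.973, 0.948 and 0 (2 reads in all) and E-OEX GE had 15.0, 9.20 and 13.1 (12.4 ± 2.97, 37 reads). The ratio of E-OEX GE to wild-type GE was 14.7, with a 95% interval of 3.79 to 126, and was 9.52 without wild-type GE replicate 3. On the deposited scale, luminal marker sums were also larger in the E-OEX glands (1027 to 1967 against 406 to 850 in wild type). That scale appears to differ between the genotypes, and the part of luminal transcripts in this ratio was not tested. Wnt7a had scaled counts of 48.1, 1.15 and 6.56 in E-OEX GE replicates 1, 2 and 3, and Prap1 was likewise highest in replicate 1 and lowest in replicate 2.

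Within E-OEX, Prap1 was 6.88 ± 0.61 (log2, SE) lower in GE than in LE, or 6.26 lower without E-OEX LE replicate 3. Within wild type the ratio of LE to GE was 133 (95% interval 36.4 to 1105), 85.5 without wild-type GE replicate 3 and 206 with DESeq2 size factors. The order was E-OEX LE and U-OEx LE, which overlapped, then wild-type LE, E-OEX GE and wild-type GE. Per kilobase, Prap1 reached 3138 ± 2488 in E-OEX LE (rank 11 to 58 of 2665) and 1721 ± 1248 in U-OEx LE (rank 14 to 97). In wild-type LE it stood at 132 ± 29.1 (rank 372 to 477). Because the gene has only 620 exonic bases, its level per kilobase is high for its reads.

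**Figure D3:**
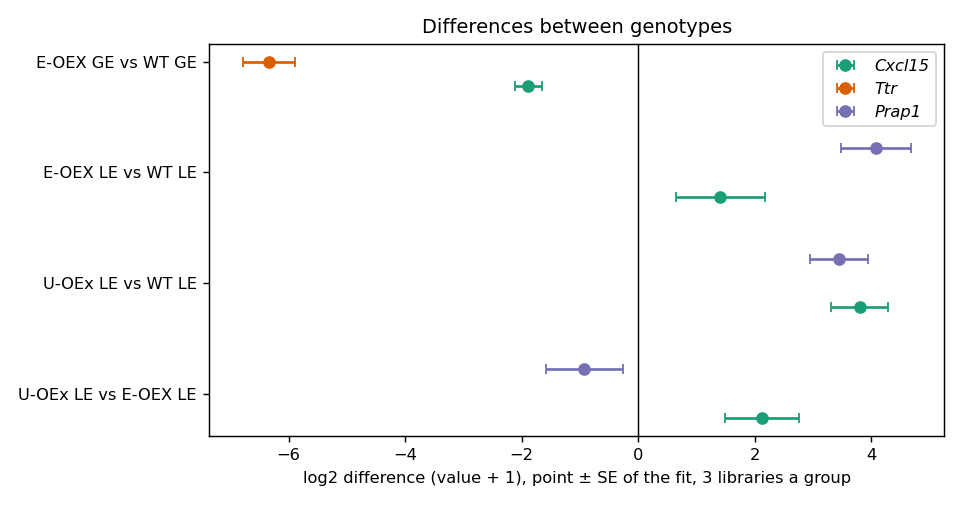
Differences between genotypes in log2(value + 1) for Cxcl15, Ttr and Prap1, as points with the SE of the fit (3 libraries a group); comparisons in which a group had 3 reads or fewer are left out. Ttr and Cxcl15 are lower in E-OEX GE, and Cxcl15 and Prap1 are higher in the LE of E-OEX and of U-OEx.

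Genes that share a role with the 3 products were followed in lists, with limma's moderated test on log2 values and Benjamini-Hochberg adjustment over all genes of each comparison (threshold 0.05). In E-OEX GE against wild-type GE, 4 of the 10 gland genes tested fell and 1 rose, where 23.5% of all genes were called (13.8% lower, 9.72% higher). Joint rescaling sets this split: of the genes called, 41.3% were higher in E-OEX GE with it and 71.6% on the deposited scale, and the median difference of all genes moved from 0.05 to 0.50. The list's median difference was −0.56. Of the 14 genes in the list, 3 were called lower in wild-type GE than in wild-type LE, namely Fxyd4, Slc39a2 and Sox17. Spink1, a trypsin inhibitor of glands, fell by 7.55 on the log2 scale (SE 0.95, adjusted p = 0.000492), from 10612, 8261 and 12770 to 9.01, 275 and 161. Lif fell by 3.46 (SE 0.34, adjusted p = 0.000144). Fxyd4, a regulator of the sodium pump, rose by 2.21 (SE 0.43, adjusted p = 0.00535). In wild type it had 24614, 14193 and 21618 in LE against 530, 191 and 234 in GE, so the 1 riser of the list was higher in LE.

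Calca, the calcitonin gene, fell by 3.94 (SE 1.04, adjusted p = 0.0226) in E-OEX GE. Its call was lost without any 1 of the 3 wild-type GE libraries, with an adjusted p of up to 0.106 over the alternatives. Sult1d1, a sulfotransferase, fell by 1.48 (SE 0.39, adjusted p = 0.0217) and was lost without the same libraries, with no filter on low values and on the deposited scale (adjusted p up to 0.112). Foxa2 did not pass (−0.53 ± 0.21, SE, adjusted p = 0.0982). Cxcl15 and Ttr were thus accompanied by lower Lif and Spink1, while Foxa2 was not called.

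In E-OEX LE against wild-type LE, 1 of the 10 gland genes rose and 1 fell, where 10.7% of all genes were called (5.12% higher, 5.54% lower). Of the genes called, 48.0% were higher in E-OEX LE after rescaling and 58.6% on the deposited scale. Wfdc3, a whey acidic protein family member, rose by 3.78 (SE 0.99, adjusted p = 0.0394). Sult1d1 fell by 2.77 (SE 0.69, adjusted p = 0.0332). Each of these calls was lost without wild-type LE replicate 1 or 3 or E-OEX LE replicate 1, among others, with an adjusted p of up to 0.158 for Wfdc3 and 0.143 for Sult1d1. The list's median was 0.08 beside −0.09 for all genes. Foxa2 was 3.12 ± 0.92 (SE) higher and did not pass (adjusted p = 0.0594).

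**Figure D4:**
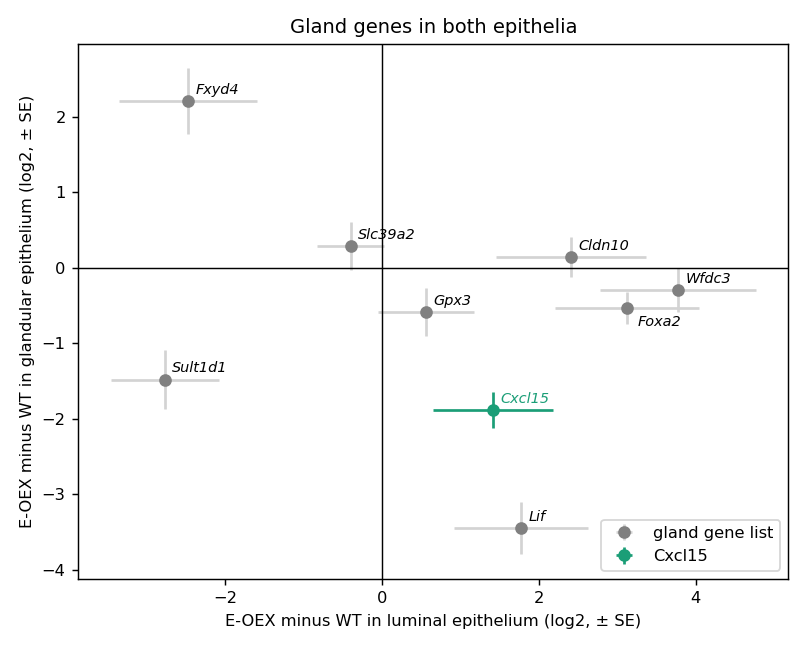
Difference of E-OEX from wild type in LE (x axis) and in GE (y axis), in log2(value + 1) with SE, for Cxcl15 and the 8 gland genes with more than 3 reads in each of the 4 groups; Calca and Spink1 are left out because they had no reads in E-OEX LE. Cxcl15 lies at 1.41 and −1.88, with a positive LE and a negative GE difference like Lif, Foxa2, Wfdc3 and Gpx3, of which only Lif in GE and Wfdc3 in LE passed the test.

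In U-OEx LE against wild-type LE, 3 of 13 gland genes rose and 5 fell, where 56.9% of all genes were called (29.1% higher, 27.8% lower). Foxa2 rose by 5.66 (SE 0.51, adjusted p = 6.45e-05) and Lif by 3.91 (SE 0.41, adjusted p = 0.000129). Sult1d1 fell by 8.49 (SE 0.53, adjusted p = 1.43e-05) and Fxyd4 by 3.86 (SE 0.37, adjusted p = 7.87e-05). The list's median was −0.67, and −1.80 with the genes at the detection floor set to their bound, beside 0.09 for all genes. Spink1 had no reads in U-OEx LE, and wild-type LE was at least 9.31-fold higher. The 5 genes that fell were Sult1d1, Fxyd4, Slc39a2, Sox17 and Spink1, of which Fxyd4, Slc39a2 and Sox17 were higher in LE than in GE in wild type.

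Cxcl15 belongs to the CXC chemokines. Of 8 CXC chemokine and receptor genes tested against wild-type LE, 3 rose and 1 fell, with a median of 2.02, where 29.1% of all genes were called higher and 27.8% lower, so the count of risers was close to the share over all genes. Cxcl2, a neutrophil chemokine, rose by 9.12 (SE 0.83, adjusted p = 6.4e-05), from 3.11, 10.2 and 1.12 to 4744, 794 and 4588. Cxcl5, another, rose by 6.74 (SE 1.01, adjusted p = 0.000763), from 10.4, 184 and 57.0 to 12307, 1734 and 7176. Cxcl16, a membrane-bound chemokine, rose by 2.86 (SE 0.29, adjusted p = 0.000111). Cxcl12 fell by 1.97 (SE 0.58, adjusted p = 0.02), a call lost without U-OEx LE replicate 1 or 2 (adjusted p up to 0.0692).

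Cxcl5 and Cxcl2 neighbour Cxcl15. Cxcl5 starts 35.2 kb before Cxcl15 and Cxcl2 starts 109 kb after it, with Ppbp, Pf4, Cxcl3 and Cxcl1 in the same stretch. In U-OEx LE the counts were 1048, 167 and 1137 for Cxcl1 and 184, 41.8 and 178 for Cxcl3. Replicate 2 was the lowest of the 3 U-OEx libraries for Cxcl5, Cxcl2, Cxcl1 and Cxcl3, whereas for Cxcl15 the lowest was replicate 3. Cxcr2, the neutrophil receptor for several of these chemokines, had 787, 211 and 1740 in U-OEx LE. Immune markers (8 of 8) summed to 7736 to 15465 in U-OEx LE. Of these, 3 are listed in both U-OEx and wild type, and each was higher in U-OEx LE without overlap on the deposited scale. Lyz2 had 1074 to 1897 in U-OEx LE and 295 to 964 in wild-type LE, Adgre1 had 46.2 to 109 and 6.14 to 36.3, and Cd68 had 293 to 462 and 219 to 278. The part of immune cells in these chemokine values was not tested.

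**Figure D5:**
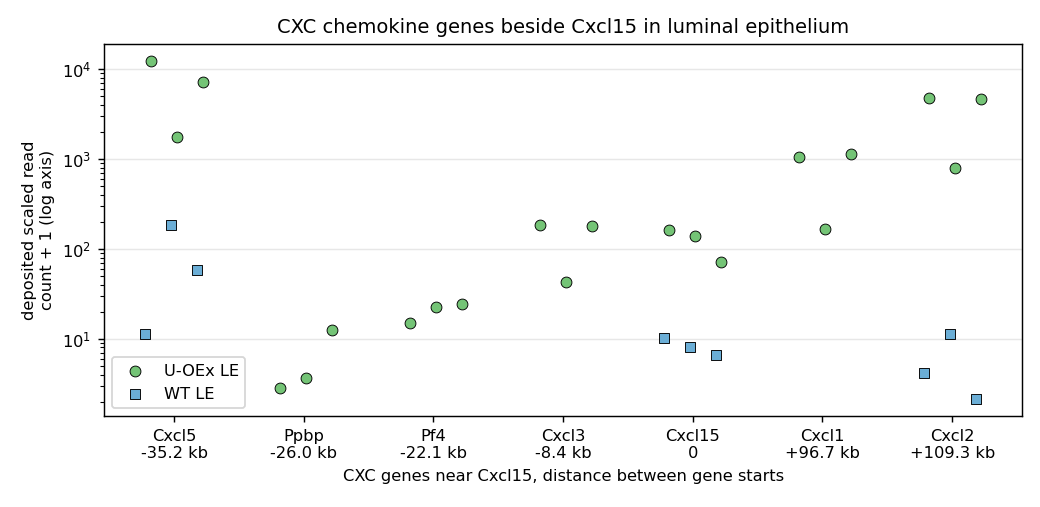
Deposited scaled read count + 1 (log axis) of Cxcl15 and the CXC genes near it, ordered by the distance between gene starts; circles are the 3 U-OEx LE libraries and squares are the 3 wild-type LE libraries, shown for the genes that both tables list. Cxcl5 and Cxcl2 are above Cxcl15 in U-OEx LE, and all 3 genes are higher there than in wild-type LE.

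In the E-OEX comparisons only 5 of the 22 genes of the CXC list were tested in GE and 4 in LE. In GE, 1 of 5 rose and none fell, where 9.72% of all genes rose and 13.8% fell. The list's median there was 0.22, beside 0.05 for all genes. The riser was the scavenging receptor Ackr3, by 0.93 (SE 0.28, adjusted p = 0.0385), lost without wild-type GE replicate 1 or 2 or E-OEX GE replicate 2 or 3 (adjusted p up to 0.121). In LE, 0 of 4 rose and 1 fell, with a median of 0.58. It was Cxcl12, which fell by 2.90 (SE 0.80, adjusted p = 0.048), lost without any 1 of the 6 libraries (adjusted p up to 0.129). Cxcl2 and Cxcl5 were not analysed in E-OEX.

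The cargo partners of Ttr were followed in E-OEX GE, where 23.5% of all genes were called. Of 5 thyroid hormone genes tested in GE none passed in limma, edgeR or DESeq2, and 0 had an unadjusted p under 0.05 in limma (median −0.29), and of 3 retinoid genes 1 fell (median −0.01). That gene was Rdh10, which makes retinal from retinol, and it fell by 1.87 (SE 0.27, adjusted p = 0.00111). In E-OEX LE none of 3 retinoid and none of 5 thyroid hormone genes passed in limma or edgeR, with medians of 0.07 and −0.64. At an unadjusted p under 0.05 there were 2 of each in limma, and DESeq2 called 1 retinoid and 2 thyroid hormone genes. Rbp4, which encodes the plasma retinol-binding protein that Ttr carries, had 102, 96.0 and 64.3 in U-OEx LE and was not analysed in the other groups.

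In U-OEx LE against wild-type LE, 3 of 7 retinoid genes rose and 1 fell (median 0.40), beside 29.1% higher and 27.8% lower over all genes. Stra6l, a receptor for retinol-binding protein, rose by 5.44 (SE 0.52, adjusted p = 8.33e-05), and Stra6, its relative, rose by 2.63 (SE 0.49, adjusted p = 0.0022). Rarb, a retinoic acid receptor with 2 reads in wild-type LE, was 20.2-fold higher (95% interval 5.29 to 172). Dhrs3, which turns retinal into retinol, fell by 1.23 (SE 0.29, adjusted p = 0.0077). Of 6 thyroid hormone genes 3 rose and 1 fell (median 2.12, or 2.36 with the gene at the floor set to its bound). The largest was Slco4a1, an organic anion transporter that rose by 8.23 (SE 0.52, adjusted p = 1.43e-05). The transporter gene Slc16a10 rose by 2.27, and Klf9, a thyroid hormone target, fell by 2.24.

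For Prap1 the lists were lipid carriage and secreted products. In U-OEx LE, 1 of 6 lipid carriage genes rose and 2 fell (median 0.66, or 0.55 with the gene at the floor set to its bound), near the 29.1% and 27.8% of all genes. Mttp, the transfer protein, fell by 1.88 (SE 0.41, adjusted p = 0.0052), from 221, 110 and 231 to 44.1, 59.5 and 43.2. Lrp2, the large endocytic receptor also called megalin, fell by 10.88 (SE 0.60, adjusted p = 9.06e-06). Pltp, the phospholipid transfer protein, rose by 1.37 (SE 0.44, adjusted p = 0.0268), lost without wild-type LE replicate 3 or U-OEx LE replicate 3 and with a replicate block (adjusted p up to 0.0888). In U-OEx LE, Prap1 was thus higher and Mttp lower than in wild-type LE, while Mttp was not analysed in E-OEX. Of the lipid carriage genes tested in E-OEX, 1 in LE and 2 in GE, none passed in limma, edgeR or DESeq2, and 0 had an unadjusted p under 0.05 in limma. The LE difference was −0.03 and the GE median was 0.39, and on the deposited scale 1 of the 2 passed in GE.

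Secreted products other than the 3 genes were mostly higher in U-OEx LE, where 9 of 11 rose and 1 fell (median 3.30), beside 29.1% and 27.8% of all genes. Olfm4, a glycoprotein of gut and uterine epithelium, had no reads in wild-type LE, so that U-OEx LE was at least 27248-fold higher. Dmbt1, a mucosal scavenger protein, was 22715-fold higher (95% interval 7772 to 110150, 3 reads in wild-type LE). Reg3g, an antibacterial lectin, was 1443-fold higher (399 to 11922, 2 reads). Ltf, the iron-binding lactoferrin, rose by 6.89 (SE 0.66, adjusted p = 8.51e-05). Wfdc2 fell by 1.29 (SE 0.21, adjusted p = 0.00115).

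In E-OEX LE, 2 of 8 secreted products rose and none fell (median 1.22), where 5.12% of all genes rose. Ltf rose by 4.58 (SE 0.69, adjusted p = 0.00477), from 2419, 417 and 571 to 37561, 13488 and 22235, and Wfdc3 is given above. In E-OEX GE, 2 of 8 rose and none fell (median 1.12), where 9.72% of all genes rose. Wfdc2, an antiprotease of epithelium, rose by 1.83 (SE 0.27, adjusted p = 0.00117). Cfb, complement factor B, rose by 2.74 (SE 0.78, adjusted p = 0.0308), lost without wild-type GE replicate 2 or 3 or any E-OEX GE library (adjusted p up to 0.0834). Prap1 was thus higher in E-OEX LE together with Ltf. In wild type, Ltf counts overlapped between LE and GE, where they were 496, 416 and 428.

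Liver-type and epithelial transcription factors are of interest because Ttr is a target of such factors in liver. In E-OEX GE, 2 of 6 rose and 1 fell (median 0.02), where 23.5% of all genes were called. Cebpa rose by 1.41 (SE 0.28, adjusted p = 0.00534) and Cebpb by 1.19 (SE 0.31, adjusted p = 0.0212). The Cebpb call was lost without wild-type GE replicate 1 or 3 or E-OEX GE replicate 2 (adjusted p up to 0.076). In E-OEX LE 0 of 5 rose and 2 fell (median −0.71), where 10.7% of all genes were called. Cebpa fell by 2.27 (adjusted p = 0.0368). Its call was lost without wild-type LE replicate 2 or 3 or any E-OEX LE library (adjusted p up to 0.176), by edgeR and on the deposited scale. In U-OEx LE 5 of 13 rose and 4 fell (median −0.50), near the 29.1% and 27.8% of all genes, among them Foxa2, which rose as given above. Sox17, an epithelial factor, fell by 3.18 (SE 0.19, adjusted p = 1.29e-05).

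Some targets of Notch signalling rose in each of the Notch1-overexpressing groups. Over all genes tested, 9.72% rose in E-OEX GE, 5.12% in E-OEX LE and 29.1% in U-OEx LE, where 27.8% fell. In E-OEX GE 3 of 4 rose, with a median of 1.82, led by Hey2 at 3.31 (SE 0.31, adjusted p = 0.000121) and Hey1 at 2.59 (SE 0.26, adjusted p = 0.000144). Heyl rose by 1.04 (SE 0.31, adjusted p = 0.0379), lost without any 1 wild-type GE library, without E-OEX GE replicate 2 or 3, or with no filter on low values (adjusted p up to 0.125). In E-OEX LE 2 of 4 rose, with a median of 2.20, namely Heyl by 4.37 (SE 0.71, adjusted p = 0.00646) and Hey1 by 3.83 (SE 0.62, adjusted p = 0.00646). In U-OEx LE 4 of 5 rose, with a median of 3.20. Heyl rose by 5.45 (SE 0.75, adjusted p = 0.000506) and Hey1 by 3.65 (SE 0.52, adjusted p = 0.000599), while Hey2 fell by 3.63 (SE 0.41, adjusted p = 0.000167). Cxcl15 and Prap1 were higher in LE groups with higher Hey1 and Heyl, although Hey2 was lower in U-OEx LE. Cxcl15 and Ttr were lower in a GE group with higher Hey1, Hey2 and Heyl. A link of the 3 genes to these Notch targets was not tested.

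U-OEx LE and E-OEX LE carry the same genotype label, and 15% of the genes tested between them were called (6.97% higher in U-OEx, 8.05% lower). Of 8 gland genes 2 were lower in U-OEx and none was higher (median −1.27). The differences were −6.00 for Sult1d1 (SE 0.72, adjusted p = 0.00419) and −2.68 for the zinc transporter gene Slc39a2, higher in LE than in GE in wild type (SE 0.38, adjusted p = 0.00619). The Slc39a2 call was lost without U-OEx LE replicate 1 (adjusted p = 0.0508). Of 6 CXC genes 1 was higher (median 0.77, or 0.80 with the genes at the floor set to their bound). It was Cxcl9, 36.5-fold higher (95% interval 9.79 to 306, 2 reads in E-OEX LE). Foxa2 (2.26 ± 0.74, SE, adjusted p = 0.0726) and Lif (1.86 ± 0.79, SE, adjusted p = 0.135) did not pass. Of the secreted products 2 of 14 were higher and 1 lower (median 0.56). Of the retinoid genes 1 of 10 was higher and 3 lower (median −0.53), and of the thyroid hormone genes 1 of 7 was higher (median −0.49). Of 7 transcription factors 1 was higher and 1 lower (median 1.08), and of 6 Notch targets 1 was higher and 2 lower (median −0.26). Of 4 lipid carriage genes 0 passed in limma or edgeR and 1 in DESeq2, with 2 at an unadjusted p under 0.05 in limma (median 0.12). The number of genes called in this comparison fell to 60 without U-OEx LE replicate 1 and to 97 without replicate 3.

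Across the 15 libraries, Cxcl15 and Ttr moved together (Pearson r 0.81) and each moved against Prap1 (−0.75 and −0.84). These correlations describe groups that differ in epithelium and genotype and share scaling, and no p is given. Among 2492 genes listed in all tables, the 5 most like Cxcl15 were Hykk (0.97), Hid1 (0.97), Ntn1 (0.96), Gm43085 (0.95) and C1qtnf6 (0.95). The 5 most like Ttr were Tmco3 (0.97), Nat6 (0.96), Nfasc (0.96), Cyp3a59 (0.96) and 4932414N04Rik (0.96). The 5 most like Prap1 were Lzts3 (0.99), Cldn1 (0.97), Mx1 (0.97), Six4 (0.97) and Plch2 (0.97). Cyp3a59, a cytochrome P450 gene, had a mean count of 2978 in wild-type GE, 85.4 in E-OEX GE and 0 across the U-OEx libraries. Cldn1, a tight junction claudin, had means of 488 in wild-type LE, 2135 in E-OEX LE and 1275 in U-OEx LE, a smaller range than that of Prap1.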

How the data were processed

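RNA sequencing libraries of mouse uterine epithelium were analysed, 3 in each of 5 groups taken from the titles. Total RNA was isolated with a Qiagen RNeasy kit and libraries were made with the NEBNext Ultra kit, per the labels' protocols. The deposited values are scaled read counts, handled as a signal; the aligner, the counting tool and the authors' scaling are not given in the sources used here. Every value was a whole multiple of 1 read's worth in its library (100% within 0.01), so reads were recovered. No library repeated another: chi-square per degree of freedom was 16.6 to 182 between replicates. The depth of the wild-type and E-OEX libraries beyond their listed genes is not known.

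Within a genotype, and for the interaction, limma (3.58.1, trend, R 4.3.3) was run on log2(deposited value + 1) of genes with a mean of at least 1. Between genotypes it was run on the recovered reads of shared genes, rescaled with TMM (edgeR 4.0.16). Benjamini-Hochberg adjustment covered all genes of each of 8 comparisons, with a threshold of 0.05. The fits were tested on simulated data. Counts of 3 reads or fewer over a group were treated as the detection floor. Alternatives were another pseudocount, no filter, edgeR, DESeq2 (1.42.0), a replicate block, other scalings and leaving out each library. The 3 genes, the gene lists and the tests were chosen with earlier results of these data known. Each list's genes are named by the largest difference among those called, up to 4 per comparison, plus Foxa2, Rbp4, Cxcr2 and Mttp; the lists overlap. The likeness rule was the 5 highest Pearson correlations among genes with a mean of at least 10 reads. Entries without a gene symbol, 222 to 761 per library, were tested but not named. Same-numbered libraries deviated together by a correlation over 0.1 in every pair in none of the comparisons. Some genes of the lists enter their counts and sums but are not reported here by name.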

Additional observations from a re-analysis of the deposited data

Results flagged for a closer look

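The change from wild type to E-OEX in Cxcl15 differed in direction between the epithelia: all 3 E-OEX LE libraries lay above, and all 3 E-OEX GE libraries below, their wild-type counterparts. Groups did not overlap for 29.9% of all genes tested in LE and 40.5% in GE, and the LE difference of 1.41 was 0.79 without E-OEX LE replicate 1. The gap between GE and LE was −2.99 on the log2 scale in E-OEX relative to wild type, and this difference was not tested because the gene was chosen for it.

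The same difference of gaps passed limma's interaction test (adjusted p under the threshold of 0.05) for 8 genes of the lists, where 10.7% of all genes tested were called; of those called, 54.3% were positive on the deposited scale and 43.9% after TMM scaling. Among gland genes it was −4.93 for Lif (adjusted p = 0.0097), −3.36 for Foxa2 (adjusted p = 0.0477) and 4.97 for Fxyd4 (adjusted p = 0.0144), which in wild type was higher in LE. The Foxa2 call was lost in 9 of 20 settings, with an adjusted p of up to 0.0995. It was 3.47 for Cxcl12 (adjusted p = 0.015, lost without WT GE replicate 3), 2.18 for Wfdc2 (adjusted p = 0.00203) and 3.97 for Cebpa (adjusted p = 0.00378). Among Notch targets it was 3.30 for Hey2 (adjusted p = 0.0148) and −3.02 for Heyl (adjusted p = 0.021, up to 0.0666 over the settings).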

How the results depend on the processing

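Of 242 alternative values of 21 results on Cxcl15, Ttr and Prap1, none changed direction. In all, 232 moved by less than the spread between libraries, the counting interval or, for a bound, a fixed factor. Part of this was set in advance, because leaving out the filter or adding a replicate block cannot move a limma difference here. Ratios of Ttr to wild-type LE have no value without wild-type LE replicate 2, which held all of its reads there. With DESeq2 size factors the GE minus LE difference was 8.45 for Cxcl15 in wild type, and in E-OEX it was 5.09 for Cxcl15 and −7.83 for Prap1. With a pseudocount of 0.1 that of Ttr in E-OEX was 4.65. On the deposited scale Cxcl15 in E-OEX GE minus wild-type GE was −1.42. Leaving out each library gave −3.52 to −2.30 for the difference of gaps in Cxcl15, a bound of 1.24 to 2.82 for Ttr in E-OEX LE over U-OEx LE and of 810 to 1349 for Ttr in wild-type GE over U-OEx LE.

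Numbers of genes called depended more on the processing. E-OEX LE against wild-type LE gave 277 genes, 105 with no filter on low values, 454 by DESeq2 and 56 to 322 with 1 library left out (117 without WT LE 2, 56 without WT LE 3, 76 without E-OEX LE 1, 62 without E-OEX LE 2). E-OEX GE against wild-type GE gave 670 and 362 to 728 (362 without WT GE 1, 430 without WT GE 3). U-OEx LE against E-OEX LE gave 642, 286 with no filter and 60 to 904 (340 without E-OEX LE 2, 334 without E-OEX LE 3, 60, 353 and 97 without U-OEx LE 1, 2 and 3). The interaction gave 315 and 179 to 449 (192 without WT LE 3; 192, 209 and 179 without WT GE 1, 2 and 3; 202 without E-OEX GE 2 and 202 without E-OEX GE 3). The cause of these shifts was not tested.

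In E-OEX, 67.2% of the genes called between GE and LE were higher in GE, 56.8% after TMM scaling and 53.6% with DESeq2 size factors. With the replicate number as a block the 8 counts were 6187, 4374, 292, 718, 3182, 612, 4143 and 314, against 6223, 4491, 277, 670, 3384, 642, 4278 and 315 without it, in the order wild-type GE minus LE, E-OEX GE minus LE, E-OEX minus wild type in LE, the same in GE, U-OEx LE minus wild-type LE, minus E-OEX LE and minus wild-type GE, and the interaction. Deviations of same-numbered libraries had correlations from −0.284 to 0.188 over the comparisons, within and between genotypes. With 3 libraries a group, these values cannot settle whether same-numbered GE and LE libraries came from the same animals. Ttr in U-OEx LE, and wild-type LE and GE values under 10 reads, are limited by depth.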
